A study of Homo sapiens with 2 samples.

Results

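The mitochondrial genome codes for genes on both of its strands, and it was examined here strand by strand in chromatin RNA of SH-SY5Y cells, a human neuroblastoma line. The members are the 37 genes on chromosome M whose symbol in GENCODE version 44 begins with MT-, out of 60554 genes in the count files. They are 13 mRNA genes, 2 rRNA genes and 22 tRNA genes. The minus strand of the reference codes for 9 of them, MT-ND6 and 8 tRNA genes, and the plus strand for the other 28 (12 mRNA, 2 rRNA and 14 tRNA genes). The labels give 2 replicates of 1 condition without genetic modification, so that no conditions can be compared. After cell fractionation, chromatin-bound RNA was sequenced from both ends in directional libraries with molecular identifiers. No source used here says if the replicates were separate cultures, so the spread between them may be technical.

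Mitochondrial DNA is transcribed in the mitochondrial matrix, by a polymerase of its own, from promoters on each strand. Each transcript runs over many genes, and tRNAs are cut out from between the mRNAs and rRNAs they separate. The strand that carries few genes therefore gives rise to long RNA that lies antisense to most of the mRNAs, and this RNA is known to be short-lived in many cells. Mitochondria lie outside the nucleus, and the share of their RNA in a chromatin fraction is commonly used as a measure of RNA from outside the nucleus.

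Each deposited file holds read pairs per gene in 3 columns. The sense column (column 4) counts pairs that come from the strand of the gene, the opposite column (column 3) pairs from the other strand, and the unstranded column (column 2) both. The sense share of a gene is its sense count over the sum of its sense and opposite counts. At a plus strand gene the opposite column thus holds pairs assigned to the minus strand, and at a minus strand gene pairs assigned to the plus strand. Such pairs are called minus strand RNA and plus strand RNA below. Whether all of them come from RNA of mitochondria was not tested. A pair that touches exons of more than 1 gene is in no gene's count, and this is judged in each column by the strand of the genes. Near a border of genes on different strands, 1 pair can therefore be a sense count of one gene and an opposite count of its neighbour.

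Sequences of hg38 from the plus strand are shown because such borders and overlaps bear on the counts that follow. The first runs over chrM:14089-14208, where MT-ND5 (capitals) of the plus strand meets MT-ND6 (lower case) of the minus strand with no base between them. The second is MT-ATP8 at chrM:8366-8572, whose last 46 bases (capitals) are also the start of MT-ATP6. The third, chrM:15888-16023, holds MT-TT of the plus strand and MT-TP of the minus strand, which end 2 bases (capitals) apart.
MT-ND5 and MT-ND6 border: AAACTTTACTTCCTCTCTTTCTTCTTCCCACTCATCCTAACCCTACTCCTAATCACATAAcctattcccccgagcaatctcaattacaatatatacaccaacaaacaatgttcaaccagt
MT-ATP8: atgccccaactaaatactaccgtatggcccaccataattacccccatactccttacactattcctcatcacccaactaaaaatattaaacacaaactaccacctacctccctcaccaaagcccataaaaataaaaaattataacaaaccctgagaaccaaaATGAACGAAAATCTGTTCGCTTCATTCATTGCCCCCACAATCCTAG
MT-TT to MT-TP: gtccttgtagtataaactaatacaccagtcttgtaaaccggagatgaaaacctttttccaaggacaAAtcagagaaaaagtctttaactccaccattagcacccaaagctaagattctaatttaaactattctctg

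Of the minus strand tRNAs, the sequences of MT-TQ and MT-TS1 are shown, read from the minus strand, because they had the highest sense count and the highest opposite count among tRNA genes outside the MT-TT to MT-TP pair. MT-TQ, the glutamine tRNA, lies at chrM:4329-4400 and shares its last 3 bases (capitals) with the end of MT-TI. MT-TS1, a serine tRNA at chrM:7446-7514, follows MT-CO1 without a gap on the other strand.
MT-TQ: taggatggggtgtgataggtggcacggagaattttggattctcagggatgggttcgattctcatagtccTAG
MT-TS1: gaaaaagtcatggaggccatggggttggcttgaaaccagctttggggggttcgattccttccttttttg
The strands differ in base content. MT-ND6 RNA holds 35.6% G and 7.05% C, and MT-ND5 RNA holds 10.6% G and 34.3% C.

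Replicate 1 had 22446529 uniquely mapped pairs, and replicate 2 had 19566145. Over all genes, the sense columns held 4155210 and 3425309 counts and the opposite columns 540916 and 436277. Markers of adrenergic neuroblastoma (6 of 6) reached a mean of 10 sense counts, and markers of leukocytes (3), endothelial cells (3) and Schwann cells (3) did not. Summed levels were 2613 and 2196 counts per 1000000 sense counts (CPM) for the adrenergic list, 0 and 0 CPM for leukocytes, 0 and 0.292 CPM for endothelial cells, and 0.481 and 0 CPM for Schwann cells. A list of 6 mainly cytoplasmic mRNAs summed to 3062 and 2683 CPM. Nuclear RNAs (4 of 5 listed were found) summed to 9490 and 10190 CPM. How much of these levels comes from outside the nucleus was not tested.

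Mitochondrial genes held few of the counts, and more of the opposite column than of the sense column. In the sense column they had 1606 counts in replicate 1 (0.0387%, 95% Clopper-Pearson interval 0.0368 to 0.0406%) and 1029 counts in replicate 2 (0.0300%, interval 0.0282 to 0.0319%), with a mean of 0.0343 ± 0.00609% (SD, n = 2). In the opposite column they had 1433 counts in replicate 1 (0.265%, interval 0.251 to 0.279%) and 1161 counts in replicate 2 (0.266%, interval 0.251 to 0.282%). The opposite share was 6.85 times the sense share in replicate 1 and 8.86 times in replicate 2. In the unstranded column the share was 0.0587% (2503 counts) and 0.0519% (1827 counts). These intervals cover counting error only.

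The mitochondrial share of the sense column differed between the libraries (Fisher exact test, two-sided, odds ratio 1.29 for replicate 1 over replicate 2, p = 2.2e-10), and for the opposite column the odds ratio was 0.996 (p = 0.92). The share of the unstranded column differed by an odds ratio of 1.13 (Fisher exact test, p = 6.3e-05). These tests compare 2 libraries and no conditions. The close values in the opposite column include a gene that differed widely. MT-RNR2, the large ribosomal RNA, held 5.79% of the mitochondrial opposite counts in replicate 1 and 23.3% in replicate 2. Without it the opposite share was 0.250% in replicate 1 and 0.204% in replicate 2.

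The strand counts of mitochondrial genes were split almost evenly. The sense share was 52.8% in replicate 1 (interval 51.0 to 54.6%) and 47.0% in replicate 2 (interval 44.9 to 49.1%). All other genes together had a sense share of 88.5% in replicate 1 and 88.7% in replicate 2. The difference was -35.7 and -41.7 percentage points, with odds ratios of 0.146 and 0.113 (Fisher exact test per library, two-sided, p below the smallest number that the software represents). Against the other protein-coding genes, whose sense share was 93.2% and 93.4%, the differences were -40.4 and -46.5 points. The 13 mRNA genes alone had a sense share of 55.2% and 54.1%, or -33.3 and -34.7 points from all other genes. The intervals and tests cover counting error within a library and treat all counts as independent. A pair over a border of strands can be a sense count of one gene and an opposite count of another, so this does not fully hold.

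Gene by gene, 23 of the 37 members had at least 10 counts over both strand columns and both libraries, and their median sense share was 46.8%. The 12 mRNA genes among them had a median of 49.7%, and 13383 other protein-coding genes with as many counts had a median of 98.9% with quartiles of 86.8% and 100%. MT-ND6 had the highest share of these mRNA genes (78.8% over both libraries), and 20.1% of the coding genes lay below it. MT-ND5 had the lowest (32.2%), with 9.21% of coding genes below it.

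**Figure D1:**
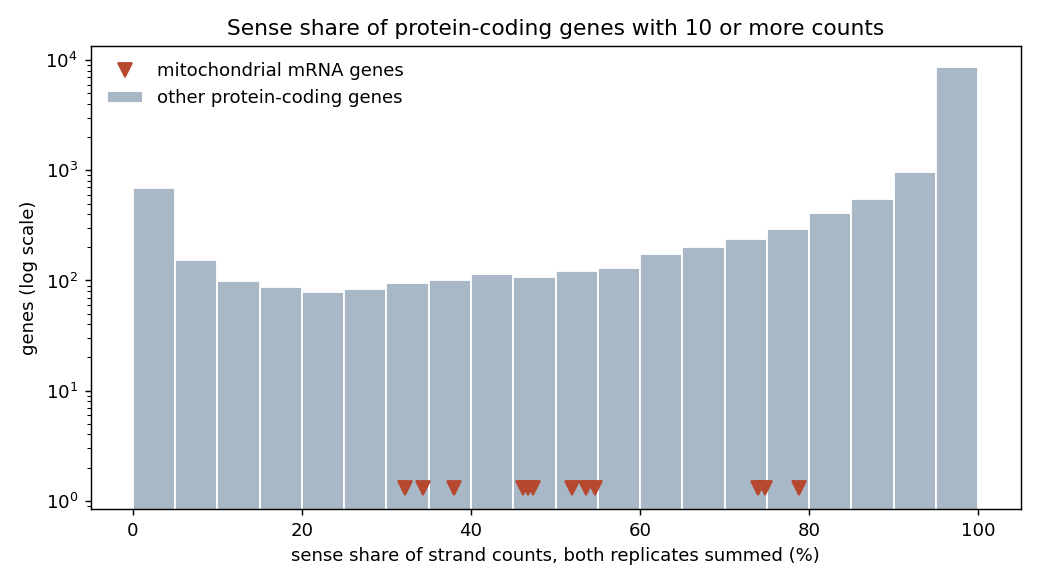
Number of other protein-coding genes (log scale) in bins of 5 points of the sense share, in percent, with the 12 mitochondrial mRNA genes of 10 or more counts as triangles at an arbitrary height. The triangles lie between 32.2 and 78.8%, where few coding genes lie, while the median of the coding genes is 98.9%.

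The opposite column was above the sense column in both libraries in 10 of the 23 genes, against 27.5% of all 22897 genes with as many counts. Of the 12 mRNA genes, MT-ND2, MT-ND4 and MT-ND5 were of this kind (3 of 12), against 11.2% of 13395 protein-coding genes. The other 7 were both rRNA genes and the tRNA genes MT-TW, MT-TC, MT-TY, MT-TS1 and MT-TT. Sense was above opposite in both libraries in 6 genes: MT-CO1, MT-CO3, MT-ND6, MT-CO2, MT-TQ and MT-TP. This was so in 70% of all 22897 genes. The interval of the sense share lay above 50% in both libraries in 4 genes (MT-CO1, MT-CO3, MT-ND6 and MT-TQ), against 61.8% of all genes. It lay below 50% in both in 7 (MT-RNR1, MT-RNR2, MT-ND2, MT-ND4, MT-ND5, MT-TS1 and MT-TT), against 20.5% of all genes.

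**Figure D2:**
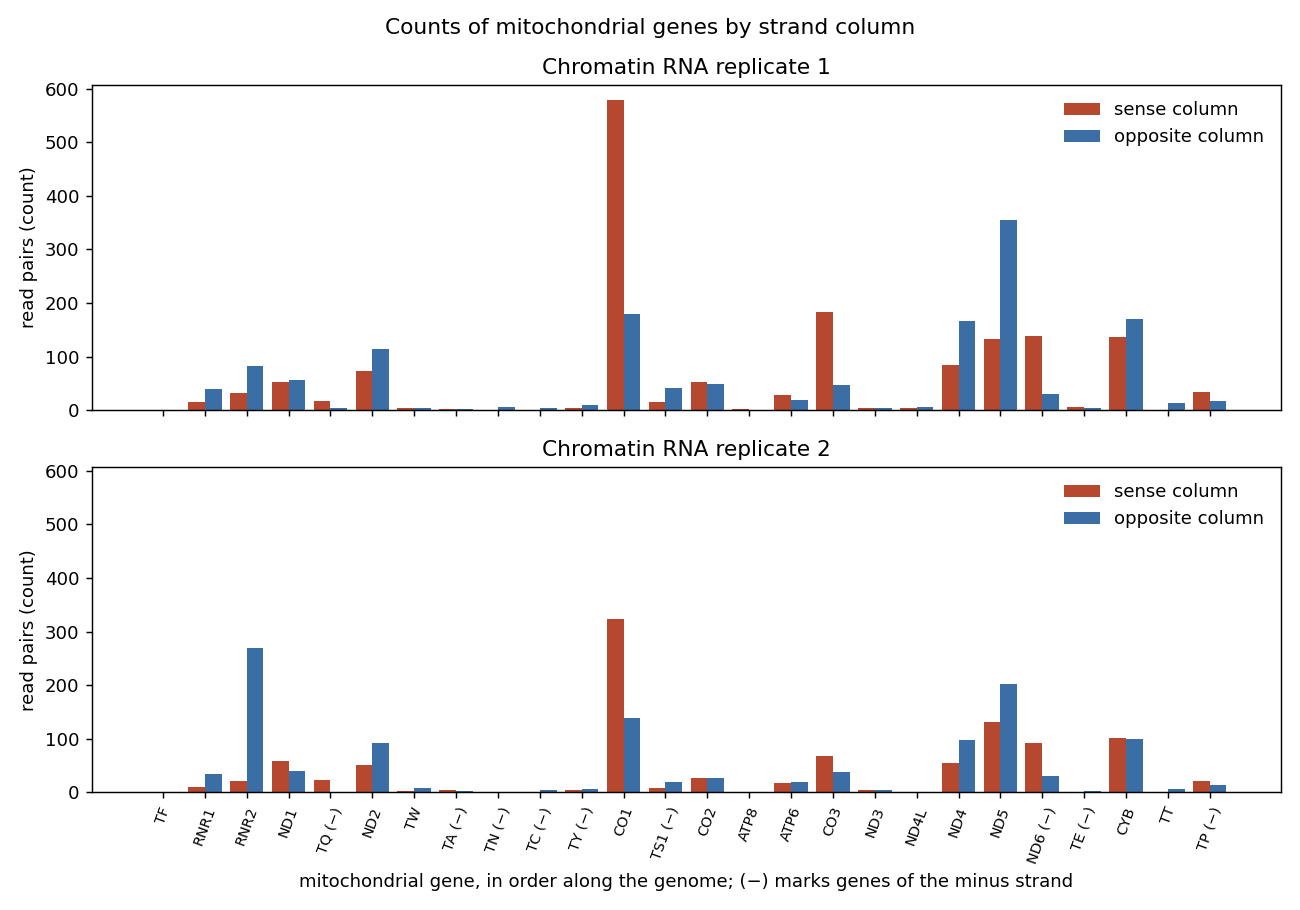
Read pairs (count) in the sense and the opposite column for the 26 mitochondrial genes with a count, in order along the genome, with 1 panel per replicate. MT-CO1 had the most sense counts in both replicates (578 and 323), and the opposite counts were highest at MT-ND5 in replicate 1 (355) and at MT-RNR2 in replicate 2 (270).

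Of the genes for cytochrome c oxidase, MT-CO1 and MT-CO3 were mostly sense and MT-CO2 was even. MT-CO1, the catalytic subunit, had 578 and 323 sense counts and 179 and 139 opposite counts in replicates 1 and 2. Its sense share was 76.4% (interval 73.2 to 79.3%) and 69.9% (interval 65.5 to 74.1%), which is below that of the other genes in both libraries. MT-CO1 made up 36.0% and 31.4% of all mitochondrial sense counts. MT-CO3 had 184 and 68 sense counts and 47 and 38 opposite counts, with a sense share of 79.7% and 64.2%. MT-CO2, which holds the copper center that takes up electrons, had 53 and 27 sense counts and 48 and 26 opposite counts. Its sense share of 52.5% and 50.9% had intervals of 42.3 to 62.5% and 36.8 to 64.9%, which hold 50%.

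The subunits of complex I (NADH dehydrogenase) on the plus strand were even or mostly opposite. MT-ND5, one of the membrane subunits thought to pump protons, had 133 and 131 sense counts and 355 and 202 opposite counts, a sense share of 27.3% and 39.3%. MT-ND4 had 84 and 54 sense counts and 167 and 97 opposite counts, and MT-ND2 had 74 and 52 sense counts and 114 and 92 opposite counts. In these 3 genes every opposite count was above the sense count of its library. MT-ND1 had 52 and 59 sense counts and 56 and 40 opposite counts, so that the libraries lay on different sides of an even split. The short genes MT-ND3 and MT-ND4L had between 1 and 6 counts in either column of either library, too few to place their share.

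MT-ND6 is the 1 mRNA gene of the minus strand and a core membrane subunit of complex I. It had 138 and 93 sense counts and 31 and 31 opposite counts, with a sense share of 81.7% (interval 74.99 to 87.2%) and 75% (interval 66.4 to 82.3%). Most of its pairs reached another gene. Of its strand counts, 118 of 169 in replicate 1 and 93 of 124 in replicate 2 were missing from its unstranded count, as were 112 of 488 and 89 of 333 at MT-ND5, the neighbour whose end is shown above. A minus strand pair over that border counts as sense at MT-ND6 and as opposite at MT-ND5, so the high values of both are not independent. Over all members, 17.6% and 16.6% of the strand counts were missing from the unstranded column.

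Cytochrome b and ATP synthase subunit 6 were close to even. MT-CYB, the mitochondrial-coded subunit of complex III, had 137 and 101 sense counts and 171 and 100 opposite counts. MT-ATP6 had 29 and 18 sense counts and 19 and 20 opposite counts. Its sense share was 60.4% (interval 45.3 to 74.2%) and 47.4% (interval 31.0 to 64.2%), on different sides of an even split. MT-ATP8, which overlaps MT-ATP6 as printed above, had 2 and 0 sense counts and no opposite count in either library, too few to place its share.

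The 2 ribosomal RNA genes had more opposite than sense counts. MT-RNR1, the RNA of the small ribosomal subunit, had 15 and 11 sense counts and 39 and 34 opposite counts. MT-RNR2 had 32 and 22 sense counts, and its opposite counts were 83 in replicate 1 and 270 in replicate 2. Its sense share was thus 27.8% in replicate 1 and 7.53% in replicate 2, with intervals (19.9 to 36.95% and 4.78 to 11.2%) that do not overlap. The authors removed rRNA reads with an index whose content no source used here describes, and the part of that step in the low sense counts of both genes was not tested.

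**Figure D3:**
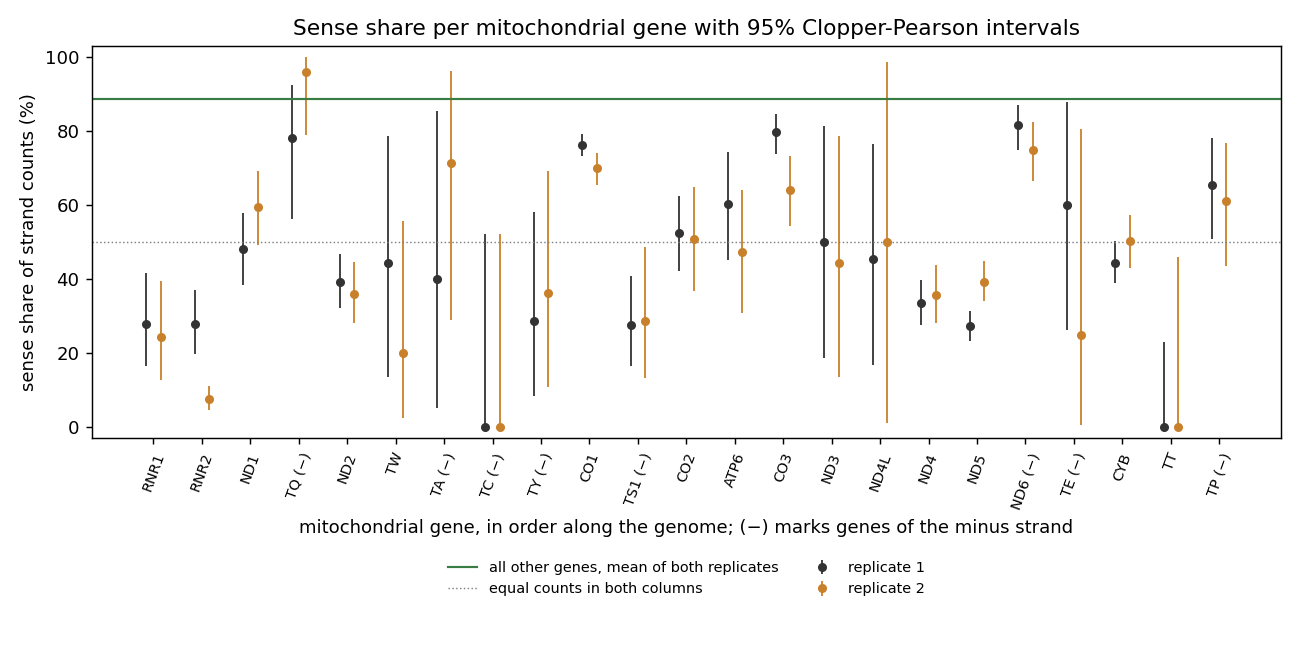
Sense share (percent) of the 23 mitochondrial genes with 10 or more counts, in order along the genome, with 95% Clopper-Pearson intervals for each replicate. The solid line is the mean sense share of all other genes and the dotted line marks 50%. The points of MT-CO1, MT-CO3 and MT-ND6 lie between 64.2 and 81.7%, those of MT-TQ at 78.3 and 95.8%, and those of MT-TP at 65.4 and 61.1%. Most other points lie near or below the dotted line.

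Transfer RNA genes had few counts, and none of the 8 on the minus strand was without any. Mature tRNAs are short and folded, and the pairs counted here need not come from them. MT-TQ had 18 and 23 sense counts and 5 and 1 opposite counts. MT-TP, the proline tRNA, had 34 and 22 sense counts and 18 and 14 opposite counts. MT-TS1 had 16 and 8 sense counts and 42 and 20 opposite counts, and is the tRNA gene with the highest opposite count. None of the strand counts of MT-TQ (23 and 24) or MT-TS1 (58 and 28) was in the unstranded column. Each of these pairs thus also touched a gene of the other strand. MT-CO1, which borders MT-TS1, had 85 and 46 strand counts missing from its unstranded count. MT-TT, the threonine tRNA, had no sense count and 14 and 6 opposite counts. All opposite counts of MT-TT are minus strand RNA beside MT-TP.

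MT-TY had 4 and 4 sense counts and 10 and 7 opposite counts. MT-TW had 4 and 2 sense counts and 5 and 8 opposite counts. MT-TC had no sense count and 5 opposite counts in each library. These tRNAs lie in 1 group between MT-ND2 and MT-CO1. The other 15 tRNA genes had at most 6 counts in any column of either library, and 11 of them, all on the plus strand, had none. In the unstranded column 3 of 22 tRNA genes had a count (MT-TF, MT-TT and MT-TP), the ones at the ends of the gene order. Of the tRNA genes, 7 have a gene of the same strand within 5 bases on each side, and all 7 were among the 11 without a count. Since pairs that touch a second gene of the strand are not counted, a count of 0 at these genes says nothing of the RNA that runs through them.

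Genes of the minus strand had a higher sense share than genes of the plus strand. The 9 minus strand genes had 219 sense and 124 opposite counts in replicate 1 (63.8%) and 156 sense and 83 opposite counts in replicate 2 (65.3%). The 28 plus strand genes had 1387 sense and 1309 opposite counts (51.4%) and 873 sense and 1078 opposite counts (44.7%). The difference was 12.4 points in replicate 1 (Fisher exact test, two-sided, p = 1.6e-05) and 20.5 points in replicate 2 (Fisher exact test, p = 2.5e-09). A minus strand pair over a border can be a sense count of one group and an opposite count of the other, as at MT-ND6 and MT-ND5. The 2 groups thus share pairs, and these p-values are not those of independent counts. The difference rested on MT-ND6 in replicate 1 and only in part in replicate 2. Without this gene, the minus strand share was 46.6% and 54.8%, and the difference from the plus strand genes was -4.89 points (p = 0.21) in replicate 1 and 10.04 points (p = 0.043) in replicate 2 by the same exact test. Without the 2 rRNA genes, an alternative chosen after seeing the data, the difference was 10.8 points (p = 0.00017) and 13.2 points (p = 0.00013) by that exact test.

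The sense and opposite columns were also compared in a fit over all 22897 genes with at least 10 counts (edgeR quasi-likelihood test with the library as a block and 1 library size for both columns, Benjamini-Hochberg adjustment). Sense was called higher in 4 of the 23 tested members, against 67.9% of all genes tested. These were MT-CO1 (log2 sense over opposite 1.47, adjusted p = 4.4e-19), MT-CO3 (1.51, adjusted p = 4e-09), MT-ND6 (1.88, adjusted p = 5.8e-12) and MT-TQ (2.72, adjusted p = 4.2e-05). Opposite was called higher in 8 of 23, against 25.4% of all genes. They included MT-ND5 (-1.04, adjusted p = 7e-09), MT-ND4 (-0.93, adjusted p = 5.3e-05) and MT-ND2 (-0.71, adjusted p = 0.0033). The others were MT-RNR1 (-1.48, adjusted p = 0.00062), MT-RNR2 (-2.61, adjusted p = 4.7e-23), MT-TS1 (-1.36, adjusted p = 0.0029), and MT-TC and MT-TT, which had no sense count. For the remaining 11 members neither column was called. Every pair of MT-TQ and MT-TS1 also touched a gene of the other strand. The call of MT-TS1 need not be independent of the counts of its neighbours. Beside MT-TQ, the plus strand genes MT-TI and MT-TM had no count in any column. MT-ND1 had no strand count missing from its unstranded count, and MT-ND2 had 7 and 0 missing.

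These p-values rest on a spread pooled over all genes, since 2 libraries leave 1 residual degree of freedom per gene, and that pooling does not take in the difference between the libraries at MT-RNR2. DESeq2 with the same terms called 0 of the 15 members to which it gave an adjusted p in either direction (0 of 23 at an unadjusted p under 0.05, adjusted p of 0.31 to 0.97). On simulated data with known changes it recovered none of them in this layout, and edgeR recovered them. Those data had the same spread for every gene, which real genes need not have. In the real data DESeq2 called 7675 genes higher in sense and 1262 higher in opposite, of 14908 tested. Whether the edgeR calls of members depend on the pooled spread was thus not settled. TMM scaling, which assumes that most genes are equal between the columns, lowered the values of members and other genes alike. It turned the signs of MT-CO1, MT-CO3 and MT-ND6, left MT-TQ at 0.17 without a call, and gave a median log2 value of all genes of 2.32, against 4.86 without it.

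Per length, some mitochondrial mRNA genes were among the higher coding genes in the sense column and most were among the highest in the opposite column. The levels are CPM of the sense total per kb of exon, for both columns. They are not corrected for pairs that touch a second gene of the same strand, which are in no count. The 13 mRNA genes had a median sense level of 15.8 ± 1.78 CPM per kb (SD, n = 2). The other coding genes with a sense count had a median of 4.37 CPM per kb, and their 99th percentile was 80.3 CPM per kb. In the opposite column the medians were 14.3 CPM per kb for the mitochondrial mRNA genes and 0.0407 CPM per kb for the other coding genes.

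MT-CO1 had the highest sense level of the 13 mRNA genes, 75.7 ± 20.6 CPM per kb (SD, n = 2), which is rank 159 of 19586 protein-coding genes. MT-ND6 followed with 57.5 ± 8.16 CPM per kb (rank 250) and MT-CO3 with 40.9 ± 22.0 CPM per kb (rank 469). By counts without length these genes had ranks 2021, 6383 and 6186. The tRNA genes MT-TP (107 CPM per kb) and MT-TQ (76.7 CPM per kb) had higher sense levels than MT-CO1, but they are shorter than a read of 75 bases and their level per kb is not comparable. The SDs of these neighbours in the order overlap. MT-CYB had 27.4 ± 2.16 CPM per kb, and the other 9 had between 1.16 and 19.4 CPM per kb. In the opposite column MT-ND5 had 39.8 ± 10.3 CPM per kb, rank 10 of the same 19586 genes, and MT-CYB had 30.8 ± 7.41 CPM per kb, rank 17. MT-CO1 (27.1 ± 1.15 CPM per kb), MT-ND2 (26.1 ± 0.392 CPM per kb) and MT-ND4 (24.9 ± 6.09 CPM per kb) were at ranks 28, 33 and 43, within the spread of each other.

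Levels were also set out by strand of the RNA along the genome. The 12 genes of 500 bases or more were used, a length chosen after the values were seen. Pairs that touch a second gene of the same strand are in no count, and the genes differ in this. MT-CO1 lies 324 and 72 bases from its plus strand neighbours. MT-ND5, MT-ND6 and MT-CYB have a same-strand gap of at least 598 bases on 1 side. MT-RNR1, MT-RNR2, MT-ND2, MT-ATP6, MT-CO3 and MT-ND4 touch or overlap a same-strand gene on each side. What part this has in the order of the genes was not tested. RNA of the plus strand was highest at MT-CO1 (90.2 and 61.2 CPM per kb in replicates 1 and 2) and MT-CO3 (56.5 and 25.3 CPM per kb). It was lowest at MT-RNR1 (3.78 and 3.37 CPM per kb) and MT-RNR2 (4.94 and 4.12 CPM per kb). In both libraries the genes next to MT-CO1 and MT-CO3 had less plus strand RNA, as at MT-CO2 (18.6 and 11.5 CPM per kb), MT-ATP6 (10.2 and 7.72 CPM per kb) and MT-ND4 (14.7 and 11.4 CPM per kb).

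RNA of the minus strand was highest at MT-ND6 (63.3 and 51.7 CPM per kb) and its neighbour MT-ND5 (47.2 and 32.5 CPM per kb) in replicate 1, and in replicate 2 MT-RNR2 (50.6 CPM per kb) stood between them. MT-CYB had 36.1 and 25.6 CPM per kb, MT-ND4 had 29.2 and 20.6 CPM per kb, and MT-ND2 had 26.3 and 25.8 CPM per kb. The values at MT-ATP6 were low in both libraries, 6.71 and 8.57 CPM per kb. Without the rRNA genes, the 10 remaining genes spanned 9.42-fold in replicate 1 and 6.03-fold in replicate 2 on the minus strand, and 8.80-fold and 7.92-fold on the plus strand. Between the libraries, Spearman's rho over these 10 genes was 0.87 for minus strand RNA and 0.73 for plus strand RNA, and over all 12 genes it was 0.67 and 0.85. Between minus and plus strand RNA within a library, rho was 0.53 in replicate 1 and 0.34 in replicate 2 over 12 genes, and 0.22 and 0.48 over 10. The genes share their libraries, so these values are descriptions.

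**Figure D4:**
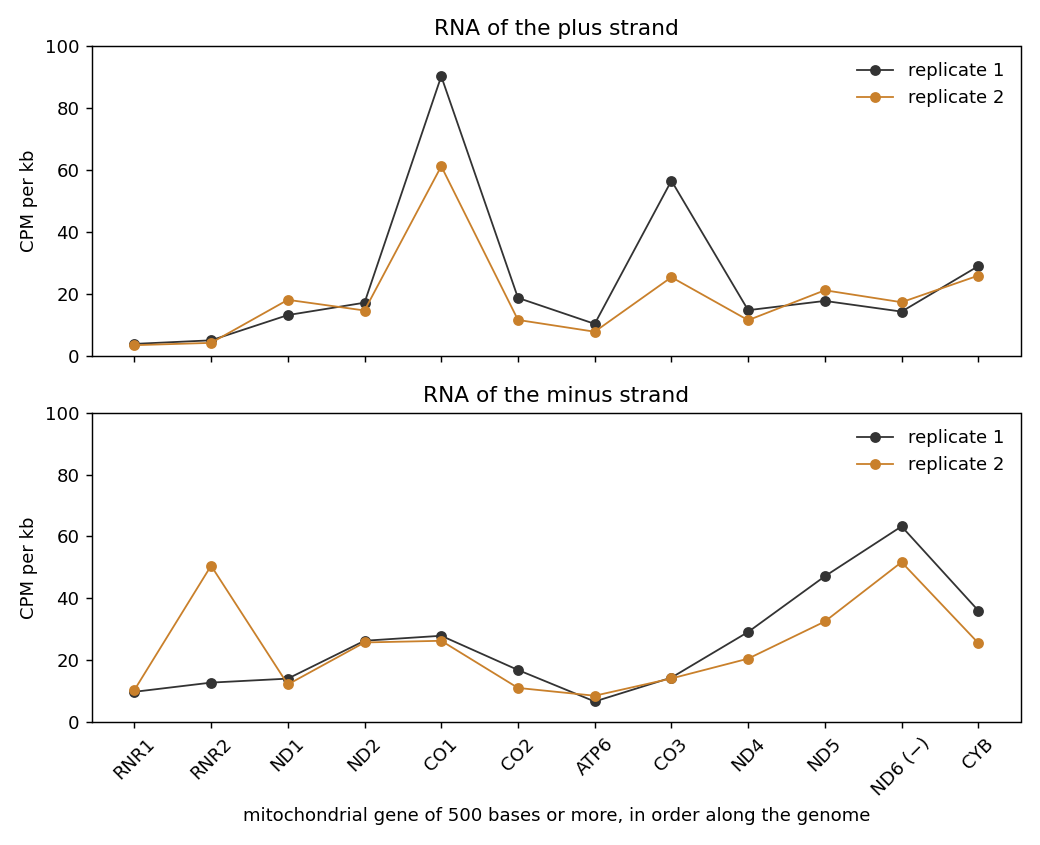
Level (CPM per kb) of plus strand RNA (upper panel) and minus strand RNA (lower panel) at the 12 mitochondrial genes of 500 bases or more, in order along the genome, for each replicate. Pairs that touch a second gene of the same strand are in no count. Plus strand RNA peaks at MT-CO1 (90.2 and 61.2) and MT-CO3 (56.5 and 25.3), and minus strand RNA at MT-ND6 (63.3 and 51.7), with a further peak at MT-RNR2 (50.6) in replicate 2.

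The levels also depend on how much of a gene is unique in the genome, because pairs that map to several places are in no count. Of the 16495 windows of 75 bases on chromosome M, 14.4% are found without a mismatch elsewhere in hg38. The share of a gene's windows was 36.6% at MT-CO1, 34.4% at MT-ND2, 28.4% at MT-RNR1, 28% at MT-ATP6, 17.1% at MT-ND1, 14.9% at MT-CO3 and 10.5% at MT-CO2. It was 7.10% at MT-ND6, 3.37% at MT-RNR2, 0.173% at MT-ND5, and 0% at MT-ND4 and MT-CYB. Of the 13 mRNA genes, MT-CO1 thus had both the highest sense level and the largest share of such windows. Both strands of a window are equally affected, and the part of this in the order of the genes was not tested.

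Between the libraries, single members differed by more than counting error in both columns. Each gene's counts were compared by an exact binomial test against the column totals, adjusted over all genes tested, a test added after seeing the data. Of the 15 members tested in the sense column 2 were called, against 5.91% of 17310 genes. MT-CO1 was 1.48 times (adjusted p = 2e-06) and MT-CO3 2.23 times (adjusted p = 6.2e-07) as high a share of the column in replicate 1 as in replicate 2 by this exact test. Of the 19 members tested in the opposite column 2 were called, against 1.07% of 10140 genes. MT-ND5 was 1.42 times as high in replicate 1 (adjusted p = 0.013), and MT-RNR2 was 0.248 times as high (adjusted p = 2.4e-30, same exact test).

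The nuclear genes for mitochondrial transcription and RNA processing were a list of 28, and all were found. Their counts are not scaled by length. They are thus not compared with those of the mitochondrial genes, which are mostly shorter. All 28 had a mean of at least 10 sense counts, with a median of 223.8 counts, and their median sense share was 99.45%. None had more opposite than sense counts in both libraries, and the lowest share was 65.6%, at SLIRP. LRPPRC, which binds and stabilizes mitochondrial mRNAs, had 1791 and 1634 sense counts. TBRG4, a FASTK family protein (FASTKD4), had 1479 and 1148 sense counts. FASTK, which is needed for MT-ND6 mRNA, had 1038 and 628, and POLG, the mitochondrial DNA polymerase, had 761 and 543 sense counts. POLG had a sense share of 82.8%, with 145 and 126 opposite counts.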

How the data were processed

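Chromatin RNA of SH-SY5Y cells was sequenced in 2 libraries. The deposited values are raw counts of read pairs per gene from STAR. According to the methods and the submitters' processing notes, the authors extracted molecular identifiers with UMI-tools, trimmed reads, removed spike-in and rRNA reads with Bowtie 1, mapped with STAR, removed duplicates and mapped again (hg38). Their versions and options and the gene annotation are not stated in any source used here. Ambiguous and multi-mapping pairs were in no gene's count.

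Names and positions came from GENCODE version 44, in which 56558 of 60554 identifiers were found, and sequences from hg38. Members and lists were chosen with earlier results of these data known. All 13 mRNA and 2 rRNA genes and tRNA genes with a mean of 5 or more in a column were named. Of the nuclear list the 4 highest were named, and of nuclear pseudogenes the 5 highest in sense and the 3 highest in opposite counts. SLIRP and single tRNA genes outside this rule were added after their values were seen.

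Shares have exact intervals, and counts were compared by the Fisher exact test within a library. The column fit used edgeR 4.0.16 and the alternative DESeq2 1.42.0 in R 4.3.3, and the rest Python 3.11.15 with numpy 2.4.6, pandas 2.3.3, scipy 1.17.1 and matplotlib 3.10.9. Both fits and the binomial test were tested on simulated data. The alternatives tried were other columns and denominators, gene subsets, length corrections, filters, scalings and each library alone. A count of 0 is bounded at 3 counts, or 0.722 CPM in replicate 1 and 0.876 CPM in replicate 2.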

Additional observations from a re-analysis of the deposited data

How the results depend on the processing

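With 2 libraries of 1 condition, p-values cover counting error or a pooled spread, and leaving out 1 library leaves values with no test of replication. Of the 37 genes, 14 had fewer than 10 strand counts in all, so their share could not be placed. With 1 condition the replicate numbers pair no groups, and the pairing in the fit is that of the 2 columns of a library. The fit without the replicate block (the library) called 5 members higher in sense and 8 higher on the opposite strand, and the added call was MT-TP (0.80, adjusted p = 0.035 by edgeR).

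The mitochondrial share of counts, 0.0343% of sense counts, was 0.0553% in the unstranded column, 0.266% in the opposite column and 0.00621% of all uniquely mapped pairs. It was 0.0300 to 0.0387% with either library left out. The difference in sense share from other genes, -38.7 points on average, was -50.1 points between medians of single genes and -35.7 to -41.7 points with a library left out. The difference between minus and plus strand genes, 16.5 points, fell to 2.57 points without MT-ND6 and was 8.01 points between medians. It was 12.4 to 20.5 points with a library left out. Without MT-ND6 the libraries gave -4.89 points in replicate 1 (Fisher exact test, p = 0.21) and 10.04 points in replicate 2 (p = 0.043, same test). The median level of 15.8 CPM per kb was 19.6 CPM per kb with exon length less 200 bases, and 14.6 to 17.1 CPM per kb with a library left out. Members with more sense than opposite counts numbered 9 over both libraries, and 8 and 9 in single libraries (8 to 9 with a library left out).

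In the edgeR fit, 4 members were called higher in sense and 8 on the opposite strand. TMM factors over the 4 columns gave 0 and 21, and DESeq2 0 and 0 (15544 and 5822 genes of all genes by edgeR, 10683 and 7795 with TMM factors, 7675 and 1262 by DESeq2). TMM reversed the log2 sense over opposite of MT-ND6 (-0.72), MT-CO1 (-1.14), MT-CO3 (-1.11), MT-CO2 (-2.50), MT-ND1 (-2.38), MT-ATP6 (-2.34), MT-TA (-2.05) and MT-TP (-1.80), signs that follow from a scaling that lowered the median of all genes too (2.32, against 4.86). With no filter on low counts all 23 members kept their call. DESeq2 also missed changes of known size when it was tried out in this layout, on simulated data with the same spread for every gene. Its 0 calls therefore do not settle those of edgeR in either direction.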

Other observations

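Nuclear pseudogenes that carry copies of mitochondrial genes were counted separately from the mitochondrial genome. Of 391 such genes, 106 had a count in some column. They held 491 sense and 364 opposite counts in replicate 1 and 417 sense and 277 opposite counts in replicate 2. Their sense share was 57.4% (95% Clopper-Pearson interval 54.0 to 60.8%) and 60.1% (interval 56.3 to 63.7%), above the intervals of the mitochondrial genes in replicate 2 and overlapping them in replicate 1. These intervals cover counting error only and not the spread among pseudogenes. MTND4LP9 alone gave 87 of the 364 and 94 of the 277 opposite counts, so the intervals do not settle if the shares differ.

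The pseudogenes with the most counts were nearly all counted on 1 strand. MTND2P2 had 57 and 51 sense counts, MTND5P15 had 38 and 37, MTND1P32 had 39 and 34 and MTATP6P19 had 34 and 32, all 4 with no opposite count. MTCO1P15 had 37 and 22 sense counts and 7 and 5 opposite counts, and MTND4P32 had 32 and 27 sense counts with no opposite count. In the opposite column MTND4LP9 was highest, with no sense count and 87 and 94 opposite counts. MTND2P40 had 0 and 1 sense counts and 24 and 13 opposite counts, and MTND1P21 had no sense count and 25 and 10 opposite counts. Pairs that match both a pseudogene and the mitochondrial genome equally well are in neither count.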
